A study of Homo sapiens with 3 samples.

Results

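YTHDC1 peaks lying just inside genes were examined in A549, a human lung adenocarcinoma cell line. These downstream peaks are the 1364 of 6368 peaks (21.4%) whose midpoint lies more than 200 and up to 1000 bases downstream, in the direction of transcription, of the nearest canonical protein-coding start. They belong to 1347 genes. Chromatin bound by YTHDC1 was immunoprecipitated from 3 replicates of wild-type, formaldehyde-crosslinked A549 cells with no treatment in the labels, and the authors pooled the reads of all replicates before they called peaks, so that each peak has 1 position and 1 value and no spread between replicates can be given. There is 1 group and no comparison of conditions, and no control library was analysed here. All tests below therefore compare counts of peaks within 1 pooled set, and their p-values and intervals cover the counting of peaks, not repeated experiments.

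YTHDC1 is the nuclear reader of N6-methyladenosine (m6A), a methylated base of RNA that is added while transcription proceeds. It is known for roles in splicing, in RNA export and on chromatin. The first stretch of a gene holds the end of exon 1, the first 5' splice site, where U1 snRNP recognises the start of intron 1, and the stretch where RNA polymerase II pauses before productive elongation. Each downstream peak was placed on the canonical transcript of its gene and put into the first class that applied: the peak covers the first 5' splice site, its midpoint is in exon 1, its midpoint is in intron 1, or it lies beyond.

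The first 5' splice site was covered by 621 downstream peaks (45.5%, 95% Wilson interval 42.9 to 48.2). Of the rest, 158 (11.6%) were centred in exon 1, 506 (37.1%) in intron 1 and 79 (5.79%) beyond intron 1 or past the gene end. To show which splice sites lie under the strongest peaks, the last 15 bases of exon 1 and the first 15 of intron 1 are printed for the 8 peaks of the splice site class with the highest −log10 q, on the strand of the gene (hg19, GRCh37), with the first 6 intron bases in capitals:
SELENOT (chr3:150321272-150321301, plus strand): caagttccagatttgGTGAGTatgtgcact
MRPL53 (chr2:74699681-74699710, minus strand): cgtggaatcgacgagGTACGAaggggaagt
PCBP2 (chr12:53846146-53846175, plus strand): gcctcgcgcctgcagGTAAGCctaaaaatt
U2AF1L4 (chr19:36236234-36236263, minus strand): gactgagaaggacaaGTGAGAacgggcgct
EIF1 (chr17:39845307-39845336, plus strand): acctccactctttcgGTAAGCtatgggaaa
FBXW4 (chr10:103454123-103454152, minus strand): gctcggcaccgacctGTAAGCgtccgctcg
PPIA (chr7:44836378-44836407, plus strand): cgcgtctcctttgagGTCGGGcgggcggcg
INO80D (chr2:206950610-206950639, minus strand): aaaagcagctgaaagGTAAGCagaggcggc

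All 8 introns begin with GT, the usual first bases of an intron, as do 614 of the 621 introns whose start is covered (98.9%) and 99.0% of 18788 first introns of canonical transcripts. GTAAGC opens 4 of the 8, but only 26 of the 621 (4.19%) against 4.00% of all first introns; this hexamer was picked after the 8 sequences were seen. GTAAGT, which pairs fully with U1 snRNA, opens none of the 8, 44 of the 621 (7.09%, 95% Wilson interval 5.32 to 9.38) and 9.40% of all first introns.

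For the intron 1 class, 150 bases around the midpoint are printed for the 4 strongest peaks whose bases meet no annotated UTR, on the strand of the gene (hg19), with CG dinucleotides in capitals, because base composition is the measure in which the downstream peaks stood farthest from the upstream ones:
TAL1 (chr1:47697160-47697309, minus strand): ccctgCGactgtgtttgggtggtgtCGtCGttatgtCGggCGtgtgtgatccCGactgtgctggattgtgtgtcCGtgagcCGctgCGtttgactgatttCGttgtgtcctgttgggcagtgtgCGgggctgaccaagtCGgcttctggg
ALDH3A1 (chr17:19650710-19650859, minus strand): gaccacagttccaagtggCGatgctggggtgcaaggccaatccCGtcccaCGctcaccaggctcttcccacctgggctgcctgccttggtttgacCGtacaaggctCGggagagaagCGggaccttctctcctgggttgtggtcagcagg
SHISAL2B (chr5:63986799-63986948, plus strand): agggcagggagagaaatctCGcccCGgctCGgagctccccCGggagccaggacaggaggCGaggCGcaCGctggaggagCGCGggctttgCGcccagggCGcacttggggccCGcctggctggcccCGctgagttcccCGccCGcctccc
FBN1 (chr15:48937248-48937397, minus strand): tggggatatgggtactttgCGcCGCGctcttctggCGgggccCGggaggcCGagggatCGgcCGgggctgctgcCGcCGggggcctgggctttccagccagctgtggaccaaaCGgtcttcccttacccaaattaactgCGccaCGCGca

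These windows hold 12 CG dinucleotides at TAL1, 6 at ALDH3A1, 15 at SHISAL2B and 14 at FBN1. They therefore cover both CpG-rich sequence and, at ALDH3A1, sequence poorer in CG.

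The downstream peaks crowded toward the start. Their median distance was 366 bases, with quartiles of 275 and 553, and 442 midpoints lay between 200 and 300 bases against 46 between 900 and 1000 (each such range leaves out its lower bound). Upstream peaks, with midpoints at the same distances on the other side of the start, numbered 707. Between 200 and 300 bases there were 2.70 downstream peaks for each upstream one, and between 900 and 1000 bases 1.35. Of all downstream peaks, 801 (58.7%) reached into the window within 200 bases of the start and 108 covered the start base itself. Another annotated start, of any gene type and more than 200 bases from the canonical one, lay within 200 bases of 454 midpoints (33.3%), against 27.3% for upstream peaks (adjusted p = 0.0119, Fisher's exact test), and 376 of these 454 had such a start in the same gene. That difference was no longer past the threshold in 5 of the alternatives run, with 0.982 points (adjusted p = 0.828, Fisher's exact test) without the peaks reaching the start window. Neither a reach into the start window nor another start applied to 397 peaks (29.1%). At the inner limit of the range, CTNND1 and MTF1 lay just outside at 200 bases (−log10 q 1.58 and 0.803) and ADSS2 and MTHFS just inside, 1 base farther (1.38 and 0.999). At the outer limit, ZC3H4 at 1000 bases and ZNF668 at 999 (3.27 and 1.06) lay inside, and FKBP4 at 1001 and IGFBP4 at 1004 (0.709 and 1.45) outside.

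**Figure D1:**
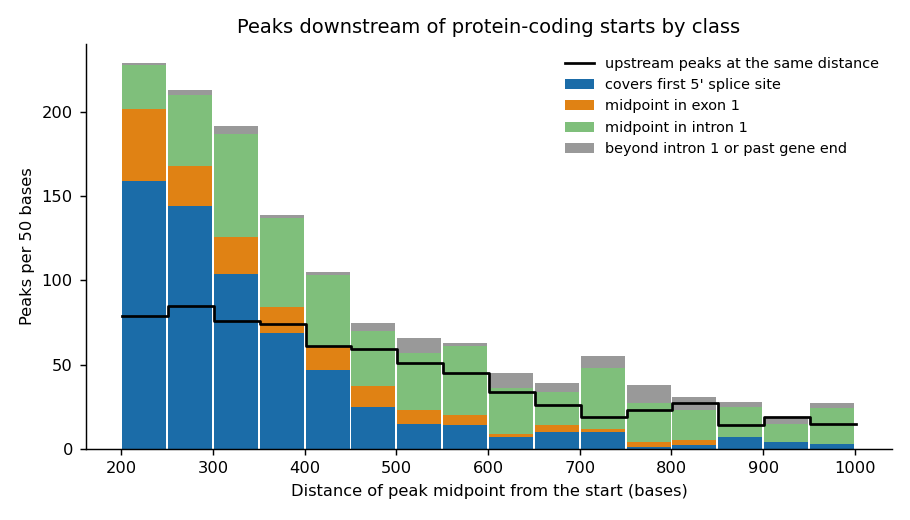
Number of downstream peaks per 50 bases (y axis) by the distance of their midpoint from the start (x axis, bases), stacked by class, with upstream peaks at the same distance as a black line. Peaks over the first 5' splice site (blue) fill most of the bins nearest to the start, and intron 1 peaks (green) most of the bins beyond 500 bases.

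The question for the splice site class was whether these peaks meet the first 5' splice site more often than their position alone gives. Upstream peaks reflected about their own start served as the comparison. The reflected peaks would cover a first 5' splice site in 257 of 707 cases (36.4%, 95% Wilson interval 32.9 to 40.0), against 45.5% of the downstream peaks (difference 9.18 percentage points, odds ratio 1.46, Fisher's exact test, adjusted p = 0.000171). Distance and width moved with this difference, since the upstream peaks lay at a median of 431 bases against 366 and were 341 bases wide against 375. Within steps of 100 bases the downstream share was the higher in each, by unequal amounts. It was 68.6% against 65.9% between 200 and 300 bases, 52.3% against 47.3% between 300 and 400, 40.0% against 33.3% between 400 and 500 and 22.5% against 21.9% between 500 and 600. Farther out, where peaks were fewer, it was 20.2% against 13.3%, 11.8% against 9.52%, 15.3% against 4.88% and, between 900 and 1000 bases, 15.2% against 8.82%. The step from 800 to 900 bases, with 59 downstream and 41 upstream peaks, thus had a wider gap than all peaks together. Tested from 200 to 400 bases alone the difference was 4.57 points (adjusted p = 0.309), and from 400 to 1000 bases 4.69 points (adjusted p = 0.144), both by Fisher's exact test. It was 0.694 points (adjusted p = 0.852) with the starts of all protein-coding transcripts and 5.93 (adjusted p = 0.073) without peaks near another start, by the same exact test. The part of distance, width and other starts in the difference was not tested further. When the interval of each downstream peak was laid at its own distance over all canonical transcripts, 42.7% of these transcripts had their first 5' splice site inside it, against the 45.5% observed. For the mirrored upstream peaks it was 32.4%, against 36.4% observed, so both sets lay above their own value from gene structure, which was not tested.

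The share over the splice site varied with the length of exon 1. Among genes with an exon 1 of more than 200 and up to 400 bases, 236 of 359 downstream peaks (65.7%) covered the first 5' splice site. With an exon 1 of at most 100 bases the share was 26.7% of 277, and with one of over 800 bases 26.8% of 56. For the mirrored upstream peaks these 3 shares were 57.8% of 204, 15.2% of 158 and 7.50% of 40. Thus the share was highest in the same middle range on both sides of the start. Midpoints of the 1293 downstream peaks in genes with an intron lay a median of 168 bases into intron 1, counted from the splice site, and 1004 of them (77.6%) lay on its downstream side. The fullest position was 150 bases into the intron, which 61.6% of these peaks covered. For the mirrored upstream peaks it was 230 bases, covered by 54.0%.

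**Figure D2:**
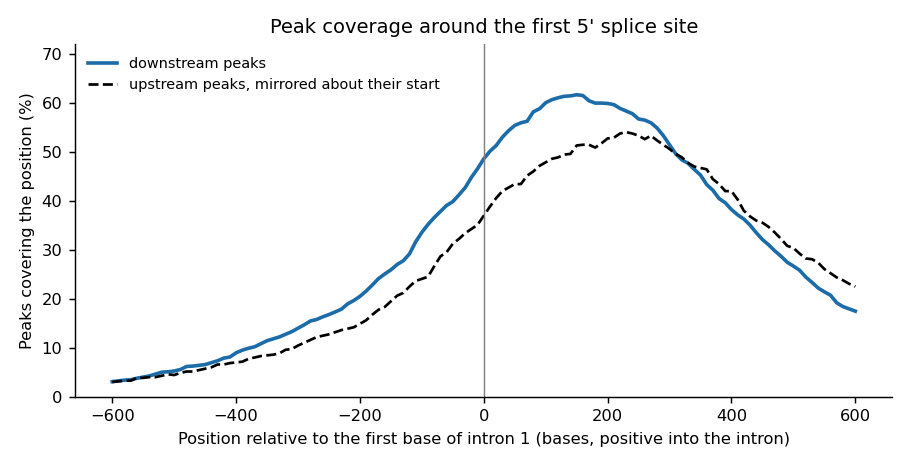
Share of peaks that cover each position (y axis, %) around the first base of intron 1 (x axis, bases, positive into the intron), for 1293 downstream peaks (blue) and 698 mirrored upstream peaks (dashed). The blue curve is fullest 150 bases inside the intron (61.6%) and not at the splice site itself.

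Midpoints in exon 1, whether or not the splice site was covered, made up 24.0% of the downstream peaks against 19.5% of mirrored upstream peaks (adjusted p = 0.0372, Fisher's exact test). The difference was −0.142 points without the peaks near another start, and it was no longer past the threshold in 8 of the alternatives run. Midpoints in intron 1 made up 69.2% against 73.1% (adjusted p = 0.0865, Fisher's exact test), and at q under 0.05 the difference was −8.33 points (adjusted p = 0.0124, Fisher's exact test). At the same distances, 24.2% of all canonical transcripts were in exon 1 and 68.7% in intron 1. Of the 327 midpoints in exon 1, 183 were in coding sequence and 138 in the 5' UTR.

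The strongest peaks of the splice site class were those at the 8 genes whose splice sites are printed above. SELENOT, which encodes the selenoprotein T of the endoplasmic reticulum, had the highest value, −log10 q 12.8, in a peak of 390 bases (chr3:150321195-150321584) that ran from 87 to 476 bases past the start over an exon 1 of 179 bases. MRPL53, a protein of the mitochondrial ribosome, followed at 12.2, in a peak of 977 bases that spanned the start as well. PCBP2, a poly(C)-binding protein of RNA, had 11.1, at 211 to 687 bases. U2AF1L4, a relative of the small subunit of the splicing factor U2AF, had 8.80 in a peak that also covered the whole of its intron 1 of 135 bases. EIF1, a translation initiation factor that guards start codon choice, had 7.38 and PPIA, the prolyl isomerase cyclophilin A, 6.59, and both of these peaks began just before the start. FBXW4, an F-box protein, had 6.68 at 665 to 1074 bases, around the end of a long exon 1 of 790 bases. INO80D, a subunit of the INO80 chromatin remodeller, had 6.49. The peaks of INO80D and FBXW4 lay near the start of a gene on the opposite strand. Those of PCBP2, U2AF1L4 and PPIA lay near another start of the same gene.

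**Figure D3:**
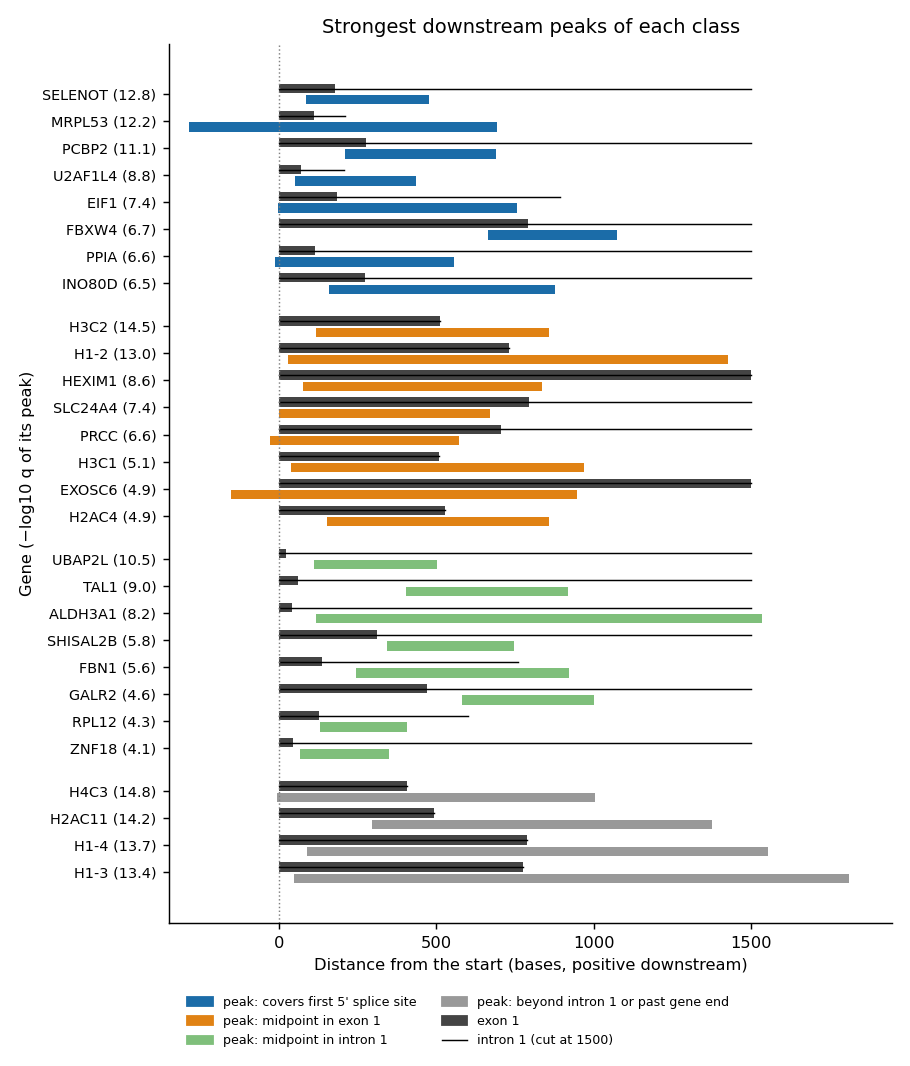
The 8 strongest downstream peaks of the splice site (blue), exon 1 (orange) and intron 1 (green) classes and the 4 strongest of the others (grey), with the −log10 q of each beside the gene, drawn to scale from the start (x axis, bases, exon 1 as a dark box, intron 1 as a line, long ones cut short). SELENOT (12.8) and PCBP2 (11.1) straddle the end of exon 1, and the peak of H1-3 (13.4) runs past the end of its gene.

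Exon 1 peaks were led by genes that have no intron. H3C2 and H1-2, which encode replication-dependent histones, had −log10 q values of 14.5 and 13.0. Their midpoints lay in the 3' UTR, at 487 bases in an exon of 511 and at 728 in one of 731. Both peaks ran past the gene end, to 856 and 1426 bases from the start. HEXIM1, which holds the elongation kinase P-TEFb inactive, had 8.58 in a peak (chr17:43225917-43226678) centred in the 5' UTR of its single exon. EXOSC6, a subunit of the RNA exosome, had 4.89 in a peak of 1100 bases over its start. Genes with a long exon 1 came between: SLC24A4, a sodium-calcium-potassium exchanger, had 7.41 and PRCC, known from a gene fusion in papillary renal carcinoma, 6.63.

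In the intron 1 class, UBAP2L, a stress granule protein, had the highest value, −log10 q 10.5 at 112 to 500 bases (chr1:154193543-154193931), behind an exon 1 of 21 bases and near another start of the same gene. TAL1, a transcription factor of blood cells, had 8.99 in a peak that also lay near another start of its gene. ALDH3A1, an aldehyde dehydrogenase, had 8.19 in a peak of 1420 bases that was comparatively poor in GC (53.5%). SHISAL2B had 5.85, again near another start of its gene. FBN1, which encodes fibrillin 1 of the extracellular matrix, had 5.57 and GALR2, a galanin receptor, 4.61. RPL12, a protein of the large ribosomal subunit, had 4.31 and ZNF18, a zinc finger protein, 4.10. The widest downstream peaks of all were those of H1-3 (1764 bases), UGDH (1620), ASPH (1571), NUDT19 (1526) and HCFC1R1 (1470). Their −log10 q values other than that of H1-3 lay between 1.48 and 2.04, so that a wide peak was not always a strong one.

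In the share at q under 0.05 the downstream peaks did not differ detectably from their neighbours at the start. The authors' q-value was under 0.05 in 743 of them (54.5%), in 55.7% of 1145 core peaks, whose midpoint is within 200 bases of a start (adjusted p = 0.578, Fisher's exact test), and in 50.1% of upstream peaks (adjusted p = 0.0865). The difference to core peaks was −8.47 points (adjusted p = 0.00414, Fisher's exact test) once downstream peaks reaching the start window were left out, a filter that also removes wider peaks (median width of the rest 328 bases) and leaves the core peaks whole. The median −log10 q was 1.37 for downstream, 1.38 for core and 1.30 for upstream peaks. A value over 5 was reached by 44 of 1364 downstream, 15 of 1145 core and 11 of 707 upstream peaks, and by 163 of all 6368. Of the 44, 17 lay in genes without an intron. The difference in these strongest peaks was not tested. By class, q was under 0.05 in 59.9% of splice site peaks, 55.1% of exon 1 peaks and 45.7% of intron 1 peaks (exon 1 against intron 1, adjusted p = 0.067, Fisher's exact test). Downstream peaks were wider than the median of all peaks (348 bases) in 56.6% of cases, against 48.5% of upstream peaks (adjusted p = 0.0011) and 54.5% of core peaks (adjusted p = 0.331, both by Fisher's exact test). Against core peaks the width difference was 6.85 points (adjusted p = 0.02, Fisher's exact test) at q under 0.05. The width difference to upstream peaks was 4.63 points (adjusted p = 0.176) without peaks near another start and 3.83 (adjusted p = 0.359) without peaks reaching the start window, by the same exact test. Leaving out peaks that reach the start window removes wide peaks by construction.

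**Figure D4:**
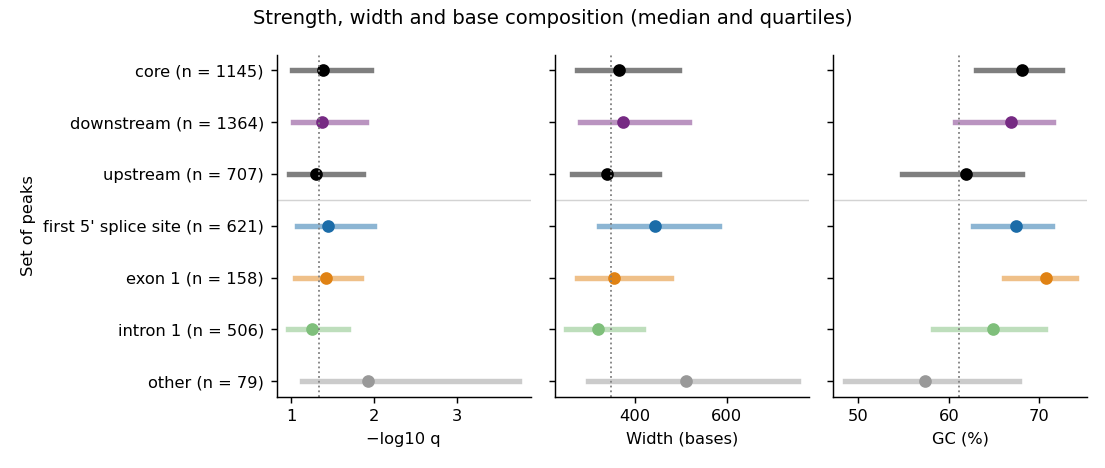
Median (dot) and quartiles (bar) of −log10 q, width in bases and GC share in % (x axes) for core, downstream and upstream peaks and for the classes of downstream peaks (y axis), with the median of all 6368 peaks dotted. Downstream peaks lie close to core peaks in −log10 q and width, and above upstream peaks in GC (66.8% against 61.9%).

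Base composition separated the downstream from the upstream peaks. The median GC share was 66.8% in downstream, 61.9% in upstream and 68.1% in core peaks. A GC share above the median of all peaks (61.2%) was found in 73.1% of downstream peaks, 52.6% of upstream peaks (adjusted p = 2.8e-19) and 82.8% of core peaks (adjusted p = 3.46e-08, all by Fisher's exact test). The difference to upstream peaks lay between 15.9 and 25.4 points over the alternatives run and kept its side of the threshold in each. The CpG ratio, the number of CG dinucleotides over that given by the C and G content, exceeded the median of all peaks (0.69) in 71.3% of downstream, 62.5% of upstream (adjusted p = 0.000161) and 87.2% of core peaks (adjusted p = 1.7e-21, both by Fisher's exact test). From 200 to 400 bases alone, the CpG difference to upstream peaks was 6.63 points (adjusted p = 0.0627, Fisher's exact test). Median GC changed little up to 600 bases, with 67.7% at 200 to 300 bases, 66.2% at 400 to 500 and 67.8% at 500 to 600. Beyond that it was lower, with 64.5% at 600 to 700 and 60.7% at 900 to 1000. Upstream peaks had 65.3% at 200 to 300 bases and 60.1% at 900 to 1000. Exon 1 peaks were richer in GC than intron 1 peaks, with 86.1% and 64.2% above the median of all peaks (adjusted p = 2.97e-07), and from 400 to 1000 bases that difference was 15.1 points (adjusted p = 0.0723, both by Fisher's exact test).

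Motifs were searched as exact letters in the 300 bases around each midpoint, on the strand of the gene and on the opposite one. GGACT, a common form of the sequence at which m6A is added, was found on the sense strand of 370 downstream windows (27.1%), 27.4% of upstream windows (adjusted p = 0.876, Fisher's exact test) and 25.3% of all 6368 windows. Counting windows with the motif on 1 strand only, 271 had it on the sense and 242 on the antisense strand (adjusted p = 0.26, exact binomial test). GTAAGT, which cannot overlap GGACT, was found on the sense strand of 56 downstream windows (4.11%), 1.98% of upstream windows (adjusted p = 0.0184, Fisher's exact test) and 3.71% of all windows. It was on the sense strand only in 55 downstream windows and on the antisense strand only in 16 (adjusted p = 1.35e-05, exact binomial test). In 34 of the 56 it sat at the start of the canonical intron 1 and in 13 more at another annotated intron start, so most of these matches are annotated 5' splice sites. Such sites lie on the sense strand and on the gene side of the start, where the rule places the downstream peaks. Both GTAAGT comparisons were therefore largely set by position and cannot tell whether YTHDC1 favours these sites. The difference to upstream windows was 1.07 points (adjusted p = 0.171, Fisher's exact test) in windows of 200 bases, and it missed the threshold in 5 of the alternatives run. The strand difference was 1.52 points (adjusted p = 0.196, exact binomial test) at 400 to 1000 bases.

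Some genes had more than 1 peak. A second downstream peak was present at 17 genes, a core peak besides the downstream one at 32 and an upstream peak at 52. In the 17 genes with a pair, the nearer peak lay at a median of 302 bases and the farther at 842, with a median gap of 127 bases between them. The nearer peak had the higher GC share in 15 of the 17, with medians of 70.0% and 51.8%, and the higher −log10 q in 10. POLR3E, a subunit of RNA polymerase III, had the strongest pair, with −log10 q 3.32 over the first 5' splice site and 2.89 in intron 1. At KIF5B, which encodes a kinesin heavy chain, the farther peak was the stronger (2.08 against 1.00), as it was at CAND1, a regulator of cullin ubiquitin ligases (1.91 against 0.752).

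Of 19881 protein-coding genes with a canonical start, 6.78% had a downstream peak, and the gene lists below are read against that background. It holds expressed and silent genes alike and was not matched to the lists for expression. Replication-dependent histones, which have no introns and package newly made DNA, stood farthest from it, with a downstream peak at 38 of 64 genes (59.4%, 95% Wilson interval 47.1 to 70.5). Their median −log10 q was 4.35 and median width 758.5 bases, 36 of the 38 lay on chromosome 6, and 10 of the 20 strongest downstream peaks were theirs. H4C3 had 14.8, H3C2 14.5, H2AC11 14.2, H1-4 13.7 and H1-3 13.4. The midpoint lay past the annotated gene end in 32 of the 38 peaks, 36 spanned that end, and the peaks ran a median of 593 bases beyond it. Histone genes include near-identical copies that can share reads, and how the authors' alignment placed such reads was not tested. Of the 38 peaks 3 covered the start base, and no histone gene of the list had a core or an upstream peak, which 5.76% and 3.53% of all protein-coding genes had. Their median GC share was 48.5%, below that of the downstream peaks as a whole. Without histones, genes lacking an intron had a downstream peak in 33 of 1029 cases (3.21%), and genes with an intron in 6.79%.

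**Figure D5:**
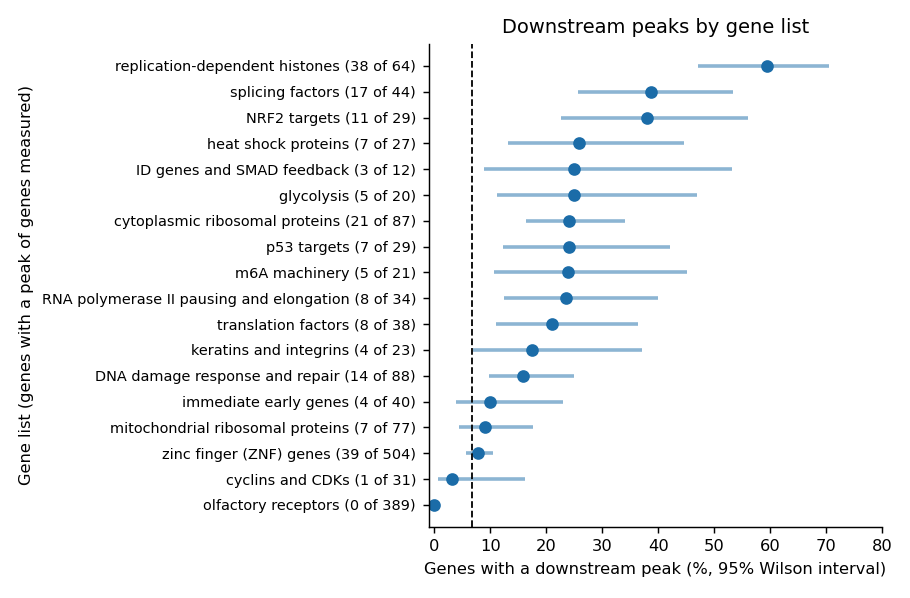
Share of the genes of each list with a downstream peak (x axis, %, dot with 95% Wilson interval), with the number of genes beside the list (y axis) and the 6.78% of all protein-coding genes as a dashed line. Replication-dependent histones (38 of 64) lie highest and olfactory receptors (0 of 389) lowest.

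Splicing factors had a downstream peak at 17 of 44 genes (38.6%, interval 25.7 to 53.4), 11 of them at q under 0.05, where the background was 3.73% of all protein-coding genes. In 13 of the 17 the peak covered the first 5' splice site. The strongest were PRPF8, the central protein of the spliceosome (−log10 q 3.26), the RNA-binding protein HNRNPH1 (2.46), the Sm core protein SNRPD1 (2.24) and the SR protein SRSF4 (2.15). NRF2 targets, genes of the antioxidant response, had one at 11 of 29 (37.9%, interval 22.7 to 56.0). SLC7A11, the cystine transporter, led them with 5.55, followed by the reductase AKR1B10 (2.53), the glutathione reductase GSR (2.09) and the small Maf protein MAFG (1.60). None of the 29 had a core peak, which 5.76% of all protein-coding genes had. In so short a list a count of 0 is near that share. Heat shock proteins (0 of 27) and ID genes and SMAD feedback (0 of 12) had no core peak either. Core shares were above 5.76% for p53 targets (17.2%), m6A machinery (14.3%), mitochondrial ribosomal proteins (14.3%), DNA damage genes (12.5%) and zinc finger genes (12.5%). They were also above it for pausing genes (11.8%), splicing factors (11.4%), cyclins and CDKs (9.68%) and cytoplasmic ribosomal proteins (8.05%). Translation factors (5.26%), immediate early genes (5.00%), glycolysis (5.00%) and keratins and integrins (4.35%) were below it.

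Several lists hold genes of protein synthesis and folding. Cytoplasmic ribosomal proteins had a downstream peak at 21 of 87 genes (24.1%), 10 of them at q under 0.05. Of the 21, 15 lay in intron 1 and 5 over the first 5' splice site. Among all downstream peaks these classes held 37.1% and 45.5%, and the class counts of the lists were not tested. RPL12 (4.31), RPLP0 (3.09), RPLP1 (2.27) and RPS23 (1.92) had the highest −log10 q. Translation factors had one at 8 of 38 (21.1%), among them the RNA helicase EIF4A1 (3.80), the elongation factor EEF1A1 (2.34) and EIF4B (2.12) beside EIF1. Mitochondrial ribosomal proteins had 7 of 77 (9.09%, interval 4.47 to 17.6), a share whose interval holds the background, with MRPS12 (1.71), MRPL19 (1.52) and MRPL9 (1.42) after MRPL53. Heat shock proteins had 7 of 27 (25.9%), 6 of them over the first 5' splice site, against 45.5% of all downstream peaks. Highest were the cochaperone DNAJA1 (3.17), the HSP70 proteins HSPA8 (2.18) and HSPA4 (1.77), and HSPA5 of the endoplasmic reticulum (1.42).

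Regulators of RNA polymerase II pausing and elongation had a downstream peak at 8 of 34 genes (23.5%, interval 12.4 to 40.0), but only 3 at q under 0.05. These were HEXIM1, the elongation factor PAF1 (2.03) and SUPT4H1 of the DSIF complex (1.90), and NELFB of the negative elongation factor had 1.13. Of the m6A machinery, 5 of 21 genes had one (23.8%), with WTAP (1.53) and METTL14 (1.21) of the methyltransferase complex and the RNA-binding proteins HNRNPC (1.44) and HNRNPA2B1 (1.12). METTL3 and YTHDC1 had none. DNA damage response and repair genes had 14 of 88 (15.9%, interval 9.72 to 25.0), 7 at q under 0.05. NBN, which belongs to the complex that senses DNA breaks, was far the strongest at 5.30, and FANCD2 of the Fanconi anaemia pathway (1.85) and the recombination protein RAD52 (1.81) followed. BIRC6, an inhibitor of apoptosis, had 1.304, at the edge of the threshold of 1.301, in a peak over its first 5' splice site. ATR, the replication stress kinase, had a core but no downstream peak.

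Among p53 targets, 7 of 29 genes had a downstream peak (24.1%, interval 12.2 to 42.1), including GADD45A (1.82), PLK3 (1.80) and PLK2 (1.38) and, in intron 1 and short of q under 0.05, CDKN1A (1.15), the gene of p21, which halts the cell cycle. MDM2 had a core peak and no downstream one. Glycolysis genes had 5 of 20 (25.0%), with PFKFB3 (2.70), PKM (2.35), GAPDH (2.16) and PGAM1 (1.62). ID genes and SMAD feedback had 3 of 12, namely BAMBI (2.26), SKIL (1.41) and TGIF1 (1.19). Keratins and integrins had 4 of 23 (17.4%, interval 6.98 to 37.1, just above the background of 6.78%). These were KRT7 (2.61), ITGB5 (1.64), ITGB1 (1.59) and KRT18 (1.07).

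Immediate early genes, which are switched on within minutes of a stimulus, had a share near the background, 4 of 40 (10.0%, interval 3.96 to 23.1). These were MCL1 (1.78), EGR2 (1.43), BTG1 (1.36) and FOSL1 (0.952), and MYC, FOS, JUN and EGR1 had none. Zinc finger genes were also near it, with 39 of 504 (7.74%), led by ZNF302 (4.67), ZNF18 (4.10), ZNF837 (3.19) and ZNF32 (2.59). Of the 31 genes of the cyclin and CDK list only CDKN1A, itself neither a cyclin nor a CDK, had a downstream peak. The kinase CDK9 (1.03) and the cyclin CCNT1 (0.962) also had one, but were counted with the pausing and elongation genes. Olfactory receptors, which are silent in lung cells, had 0 of 389. A count of 0 allows a share of up to 0.771% if 3 genes are taken as its limit, and the Wilson interval used for the other lists reaches 0.978%. In 13 of the 18 lists the lower bound of the interval lay above the background, and in 1, the olfactory receptors, the upper bound lay below it. Since that background also counts silent genes, these tallies do not separate the theme of a list from its expression. The lists were chosen with earlier results of these data known. Some share genes, such as HNRNPC and HNRNPA2B1 in both the m6A machinery and the splicing factors, so these counts are not independent.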

How the data were processed

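YTHDC1 ChIP-seq of A549 cells gave 1 peak file for 3 replicates. The authors aligned reads to hg19 (Bowtie2 in the methods of the study, BWA in the submitters' processing notes), pooled the replicates and ran MACS2 in broad mode (broad cutoff 0.25, q 0.1). The deposited value of a peak is its −log10 q-value, with 1.301 standing for q = 0.05. Read depth and a control library are not given in the sources used here, and the peak names show a merging step that is not described.

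Peak midpoints were assigned to the nearest Ensembl canonical start of a protein-coding gene in GENCODE release 44 mapped to GRCh37 (19881 starts, 282 further genes without a canonical transcript there left out). Exons split by gaps of under 30 bases in that mapping were joined. GC share and CpG ratio were computed over the whole peak. Counts of peaks were compared by 2-sided Fisher's exact tests, and strands by a 2-sided exact binomial test (Python 3.11.15, scipy 1.17.1, numpy 2.4.6, pandas 2.3.3), with Benjamini-Hochberg adjustment over all 18 tests and a threshold of 0.05. Intervals are 95% Wilson intervals of counting error only. The scripts were tested on simulated peaks.

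Named genes were a fixed list from the study, the 8 strongest peaks of each class (4 of the others), the 5 widest, up to 4 of each gene list, genes with 2 peaks and the peaks at the limits. The peak range, gene lists and rules were chosen with earlier results of these data known. Results for some genes under the naming rule are not reported here. Gene lists are described by counts without a test. In all, 14 alternatives were run, 3 of them (both splits by distance, histones left out) chosen after seeing the data.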

Additional observations from a re-analysis of the deposited data

How the results depend on the processing

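Differences are in percentage points, downstream minus the other set. At q under 0.05 only, 743 peaks remained, 50.1% covered the first 5' splice site and 65.7% were centred in intron 1, and the differences were 5.50 (exon 1 midpoints), −8.33 (intron 1 midpoints), 6.85 (width against core), 4.73 (another start) and 1.78 (GGACT). Asking for 50 bases on both sides of the splice site left 33.4% in that class, and a midpoint within 100 bases of it 20.6%, with a difference of 1.79 (splice site) and 8.87 (q under 0.05, exon 1 minus intron 1). With the starts of all protein-coding transcripts the differences were 0.694 (splice site), −0.0695 (exon 1), 4.78 (width against upstream) and 1.96 (another start). Without peaks near another start, 42.3% covered the splice site and 21.6% were centred in exon 1, with differences of 5.93 (splice site), −0.142 (exon 1), −2.15 (width against core), 4.63 (width against upstream) and 2.12 (GTAAGT). Without peaks reaching the start window, 563 remained, with 18.3% over the splice site, 14.0% in exon 1 and 76.0% in intron 1, and differences of 4.04 (splice site), −0.702 (exon 1), 0.176 (intron 1), −8.47 (q against core), −10.1 (width against core), 3.83 (width against upstream), 0.982 (another start), −3.61 (q, exon 1 minus intron 1), 1.54 (GGACT) and 1.49 (GTAAGT). Core peaks were kept whole there and that filter removes wide peaks, so its width and q values against core peaks are set in part by the filter. Among peaks no wider than the median, 592 remained, with 31.9% over the splice site and 72.3% in intron 1, and differences of 3.40 (exon 1), −7.24 (q against core), 0.674 (another start), −1.05 (q, exon 1 minus intron 1) and 2.83 (GTAAGT). In genes with an intron, 73.0% were centred in intron 1 and the exon 1 difference was 3.58. Motif windows of 200 bases gave 1.07 for GTAAGT.

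From 200 to 400 bases (773 peaks), 61.6% covered the splice site and 30.3% were centred in exon 1, with differences of 4.57 (splice site), 3.52 (exon 1), 6.63 (CpG against upstream) and −0.129 (GGACT, sense minus antisense). From 400 to 1000 bases (591 peaks) the shares were 24.5% and 15.7%, and the differences 4.69 (splice site), 2.00 (exon 1), 2.80 (another start), 15.1 (GC, exon 1 minus intron 1), 2.05 (GGACT), 0.925 (GTAAGT) and 1.52 (GTAAGT, sense minus antisense). Without histone genes the GGACT difference was 0.237. These 3 alternatives were chosen after seeing the data. All others of the 211 recomputed tests, 166 in number, kept their direction and their side of the threshold. The cause of the changes was not tested.

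Leaving out 1 replicate could not be run, since the replicates were pooled before peaks were called. No paired analysis was possible because the single group has 1 pooled peak set. With no depth, no replicate values and no control library, the peak values carry no experimental error here. In 11 of the 18 gene lists the count fell by over 1.5 times at q under 0.05. The share of all protein-coding genes with a downstream peak fell from 6.78% to 3.73% under the same filter, which is also over 1.5 times.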
